A study of Mus musculus with 3 samples.

Results

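The cells described here were epithelial cells of the pregnant mouse uterus that held little or no RNA of the implantation serine proteases Prss28 and Prss29. They were 231 of the 1825 cell barcodes that passed the quality filter (12.7%, exact Clopper-Pearson 95% interval 11.2 to 14.3). To pass, a barcode needed 500 or more detected genes, and mitochondrial genes could give no more than 20% of its unique molecular identifiers (UMIs, 1 per captured RNA molecule). Members were chosen by their own UMI counts. A member held at least 3 UMIs summed over the epithelial genes Epcam, Cdh1, Cldn3 and Cldn4, and under 20 UMIs of Prss28 and Prss29 per 10000. It held at most 1 UMI of the leukocyte gene Ptprc, under 5 UMIs of the decidual gene Tdo2 per 10000, and under 3 UMIs of the mesothelial genes Msln, Upk3b, Lrrn4 and Upk1b. The members were thus selected on the measured values of these 12 genes, which are given as a description and left out of every count. They are set beside 3 groups: 28 barcodes that met the same rule but held at least 20 UMIs of Prss28 and Prss29 per 10000 (protease epithelium), 96 mesothelial barcodes, and all 1594 other barcodes that passed the filter.

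The study profiled uteri collected on pregnancy day 7.5, when the embryo has attached and the stroma around it is turning into decidua. The female mice were kept on normal chow until 8 weeks of age and mated with stud males, the tissue was dissociated with trypsin, and cells were captured for 3' sequencing on a 10x Genomics chip. The labels give no genotype for the library used here and do not say how many uteri it held. The other libraries of the series (genotypes Prl8a2icre/+ Sun1-GFPLsL/+ and Sun1-GFPLsL/+) are not analysed here. With 1 library there is no replicate, and cells of 1 library are not replicates. No test was therefore made, and every interval below covers counting error only.

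The luminal epithelium lines the uterine cavity and is the surface to which the embryo attaches, and the glands below it secrete into that cavity. In the mouse, gland formation needs the transcription factor Foxa2, and leukemia inhibitory factor made by glands acts on epithelium through the receptors Lifr and Il6st. Hbegf, a ligand of the epidermal growth factor family, appears in luminal epithelium where the embryo attaches, Cyp26a1 degrades retinoic acid, and Prss28 and Prss29 encode tryptase-like proteases secreted by the endometrium. Prap1 encodes a secreted proline-rich acidic protein of uterine and intestinal epithelium.

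The start regions of 3 genes are shown here: Prap1, the most abundant RNA of the members, and the neighbouring genes Prss28 and Prss29, which the rule used. Each sequence is the RefSeq window on GRCm38.p6, plus strand, with 250 bases before and 50 bases from the annotated start, and capitals mark matches to the motifs named after the sequences. Prap1 lies at chr7:140093146-140093445, Prss28 at chr17:25308396-25308695 and Prss29 at chr17:25318404-25318703.
Prap1: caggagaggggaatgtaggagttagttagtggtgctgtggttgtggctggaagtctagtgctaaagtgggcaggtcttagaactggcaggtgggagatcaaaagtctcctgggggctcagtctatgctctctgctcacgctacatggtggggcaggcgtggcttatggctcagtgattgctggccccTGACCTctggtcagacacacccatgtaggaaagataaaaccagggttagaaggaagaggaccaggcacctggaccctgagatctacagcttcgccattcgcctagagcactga
Prss28: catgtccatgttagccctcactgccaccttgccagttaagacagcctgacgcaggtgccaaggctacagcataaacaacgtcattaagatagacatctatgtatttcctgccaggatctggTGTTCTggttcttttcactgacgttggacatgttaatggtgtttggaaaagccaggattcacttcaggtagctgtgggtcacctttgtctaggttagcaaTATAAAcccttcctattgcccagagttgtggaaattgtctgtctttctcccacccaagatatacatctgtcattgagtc
Prss29: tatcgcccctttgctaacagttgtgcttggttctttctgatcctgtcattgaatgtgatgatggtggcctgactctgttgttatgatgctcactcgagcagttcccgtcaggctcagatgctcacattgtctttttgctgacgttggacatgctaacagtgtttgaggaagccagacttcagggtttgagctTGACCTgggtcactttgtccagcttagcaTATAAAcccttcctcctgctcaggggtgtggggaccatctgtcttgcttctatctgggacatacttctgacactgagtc
The windows of Prss28 and Prss29 were 63.3% identical in a global alignment, with a longest shared run of 15 bases. Prap1 was 49.2% identical to Prss28 and 50.2% to Prss29, with a longest shared run of 7 bases in each case. Both protease windows held TATAAA on the gene's strand at position -29, with the annotated start as 0, and the Prap1 window did not hold it. The motif was on the gene's strand in 8.32% of 32851 RefSeq promoter windows of this length. Both strands were searched for each motif, and no matches overlap. The nuclear receptor site AGGTCA lay on the opposite strand, so that its complement is in capitals, at position -63 in Prap1 and -58 in Prss29, and 16.3% of all windows held it on either strand. The steroid receptor site AGAACA lay on the opposite strand at position -129 in Prss28, and 19.0% of all windows held it. The forkhead core TGTTTAC, which factors such as Foxa2 bind, was in none of the 3 windows and in 3.65% of all windows. A match is a run of letters, not a shown binding site.

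The 231 members held 3331678 UMIs in sum, with a median of 7350 per cell (775 to 76243), 2453 detected genes and 6.34% mitochondrial UMIs. Protease epithelium held 376990 UMIs with a median of 10757 per cell and 2.78% mitochondrial UMIs. A level below is the summed UMIs of a group per 1000000 UMIs of that group (CPM), and each UMI counts 1 RNA molecule from its 3' end, so it does not scale with gene length. Deep cells weigh most in such a sum, and 72 members held more than 3 times the members' median. Scrublet, a doublet caller, marked 2 members.

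The markers given with the label were present, with 1 weak one. Epcam, a gene of the rule, was at 763 CPM in members, against 578 CPM in protease epithelium and 14.5 CPM in other cells with under 3 epithelial UMIs. The keratin genes Krt8 and Krt18, which the rule did not use, were at 1079 and 458 CPM in members, against 53.9 and 28.9 CPM in those other cells. Krt19 was the weak marker, with UMIs in 38.5% of members, against 14.3% of protease epithelium and 92.4% of mesothelium with under 3 epithelial UMIs. Hbegf and Cyp26a1 had UMIs in 79.7% and 60.6% of members, against 4.68% and 2.48% of leukocytes. Other genes known from luminal epithelium were near 0, with Calb1 at 2.70 CPM, Lpar3 at 3.90 CPM, Wnt7a at 5.10 CPM and Krt13 at 0. The glandular list of 6 markers summed to 30.9 CPM in members and 45829 CPM in protease epithelium. All 4 neutrophil markers were at 0, and the lists for endothelium, T cells, phagocytes and erythroid cells summed to 6.0, 2.10, 16.5 and 0.60 CPM. The stromal list of 9 markers summed to 631 CPM in members, of which Fbln1 gave 575 CPM, and 7 of the 9 were under 10 CPM. The decidual list of 7 markers summed to 180 CPM, of which Cryab gave 112 CPM and Dio3 50.4 CPM.

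The protease threshold fell in a gap between cells, and the epithelial threshold did not. Among members, 145 held no protease UMI and the highest stood at 12.9 per 10000. The lowest cell of protease epithelium stood at 42.7 per 10000, the next at 127 and the median at 1087. The low values of the members were of the size found in leukocytes: among 363 cells with at least 3 Ptprc UMIs and no epithelial UMI, used here as a measure of free RNA, the 95th percentile was 7.22 per 10000. At the other threshold, 18 members held exactly 3 epithelial UMIs and 21 barcodes that met every other condition held 2. The members' median was 14 and their highest value 171.

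Prap1 was the most abundant RNA of the members, at 58935 CPM or 5.89% of all their UMIs, against 2841 CPM in protease epithelium, where 1 cell gave 48.5% of its UMIs. Per cell, members ran from 0.557 to 2453 Prap1 UMIs per 10000 with a median of 477, and protease epithelium from 0.640 to 326 with a median of 5.12. A Prap1 UMI was found in nearly every cell type, including 91.7% of the leukocytes used as background, so a single UMI does not mark a cell type here. Above the leukocytes' 95th percentile of 36.0 per 10000 stood 218 of the 231 members, 4 of the 28 protease cells, 1 of 79 mesothelial cells and 108 of 1463 other cells with under 3 epithelial UMIs. The rule kept the proteases low in every member, so only the 28 protease cells could hold both Prap1 above that level and the proteases. Of these cells, 4 held both and 24 were above the protease threshold alone. Among members, 13 held neither. In the GENCODE M21 annotation of GRCm38, Prap1 spans chr7:140093395-140097200, Prss28 chr17:25308646-25311876 and Prss29 chr17:25318654-25322684.

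**Figure D1:**
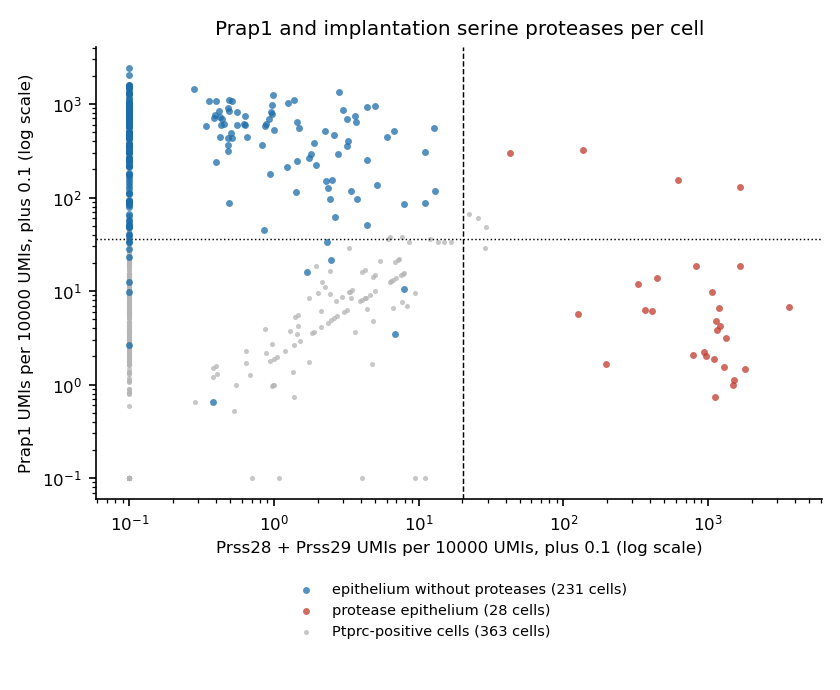
Each point is 1 cell, with Prss28 and Prss29 UMIs per 10000 on the x axis and Prap1 UMIs per 10000 on the y axis (log scales, 0.1 added to each value); the dashed line is the protease threshold of 20 and the dotted line the leukocytes' 95th percentile of Prap1. Members lie high on the left, 24 of 28 protease cells low on the right, and Ptprc-positive cells low on the left.

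After Prap1, the most abundant secreted product was Wfdc2 (GRCm38, chr2:164562413-164568510), a protease inhibitor of mucosal surfaces, with UMIs in 96.1% of members (92.7 to 98.2), 67.9% of protease epithelium and 13.5% of the leukocyte background. Its level was 2968 CPM in members, 374 CPM in protease epithelium and 48.2 CPM in other cells with under 3 epithelial UMIs. Per cell, Wfdc2 ran from 0 to 128 UMIs per 10000 in members with a median of 23.6, and from 0 to 22.6 in protease epithelium with a median of 1.46, so the groups overlap at the low end. Mmp7 (chr9:7692090-7699585), a matrix metalloproteinase of mucosal epithelia, had UMIs in 83.5% of members (78.1 to 88.1) and 10.7% of protease epithelium. Complement C3, an estrogen-induced uterine product, stood at 1735 CPM in members, 101 CPM in protease epithelium and 5324 CPM in mesothelium, so it did not mark epithelium alone. F3 (tissue factor, which starts clotting) was among the 25 most abundant RNAs with mitochondrial and ribosomal protein genes left out, and was chosen after its values were seen. It was at 2776 CPM in members, against 507 CPM in protease epithelium and 127 CPM in other cells. The efflux pump Abcb1b, chosen in the same way, was at 1633 CPM in members and 194 CPM in protease epithelium.

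Against protease epithelium, Prap1, Hbegf, Wfdc2 and Mmp7 were at least 2-fold higher in members, and Spink1, Foxa2, Sox9 and Agr2 at least 2-fold lower. Of 7250 genes with at least 50 UMIs over both groups, 1369 (18.9%) were at least 2-fold higher in members and 589 (8.12%) at least 2-fold lower. Members held 3331678 UMIs and protease epithelium 376990, so a gene reached the minimum at a lower level through members than through protease epithelium. The numbers of higher and lower genes are therefore a description. Each list count against protease epithelium below has the same limit and is to be read beside these shares. Of the 1369 genes, 111 were at 0 UMIs in protease epithelium, and 13 of these would fall short of 2-fold if set at 3 UMIs there. The median gene was 0.19 higher on the log2 scale, and with all ratios divided by that median the share of higher calls moved from 69.9% to 58.3%. For single genes the ratio is given with its exact conditional binomial 95% interval. For genes at 0 in protease epithelium it is a lower bound set at 3 UMIs over that group. Some ratios depend on depth. Ratios after thinning every cell to 2000 UMIs were computed for part of the named genes. Hdc, Gata2, Slco2a1 and Krt23 were among those left out. Where thinning moved a computed ratio across the 2-fold mark, the thinned value is given beside it. For 19 ratios of named genes no value could be given after thinning. A gene printed without a thinned value is therefore not shown to have kept its call.

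Of 21 implantation and receptivity genes, 12 were measured, 4 were at least 2-fold higher and 3 at least 2-fold lower. Prap1 was 20.7-fold higher (19.5 to 22.0). The histidine decarboxylase gene Hdc, whose enzyme makes histamine, was at 129 CPM in members and 7.96 CPM in protease epithelium, 16.3-fold higher (5.53 to 79.1). Msx1, a homeobox factor of receptive luminal epithelium, was at 57.3 CPM in members and 207 CPM in protease epithelium, 3.61-fold lower (2.74 to 4.72). Gata2, a regulator of progesterone response, was 4.09-fold lower (2.92 to 5.66). Cyp26a1 was at 263 CPM in members and 141 CPM in protease epithelium (ratio 1.87, 1.42 to 2.51), with UMIs in 60.6% and 32.1% of cells. It did not reach the 2-fold mark on summed UMIs and reached 2.39 with every cell weighted alike and 4.24 after thinning. Lifr, the leukemia inhibitory factor receptor, stood below that mark too, at 374 CPM in members and 231 CPM in protease epithelium (ratio 1.62, 1.30 to 2.04), and reached 2.32 after thinning. Lif itself was low in both, at 13.5 CPM in members and 7.96 CPM in protease epithelium, and Ihh was at 0 in members and 5.31 CPM in protease epithelium.

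The epidermal growth factor list had 6 measured genes, 2 of them higher and none lower. Hbegf was at 685 CPM in members and 172 CPM in protease epithelium, 3.97-fold higher (3.10 to 5.17). Hbegf and Cyp26a1 are luminal genes, and both were spread widely over cells. Per cell, Hbegf ran from 0 to 74.4 UMIs per 10000 in members with a median of 4.29, and from 0 to 9.65 in protease epithelium with a median of 1.5, so the ranges overlap. Cyp26a1 ran from 0 to 38.9 in members with a median of 1.28, and from 0 to 12.8 in protease epithelium with a median of 0. Erbb4, a receptor that binds Hbegf, was at 120.4 CPM with UMIs in 64.5% of members and at 0 in all 28 protease cells, at least 15.1-fold higher. A count of 0 in 376990 UMIs allows up to 7.96 CPM. Egfr was low and did not differ by 2-fold (26.1 CPM in members and 21.2 CPM in protease epithelium). Areg, another ligand, was at 6.0 CPM in members, which is under that limit, and at 0 in protease epithelium.

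The gland side stood out by level. All 3 measured genes of the glandular list were lower in members. Spink1, a trypsin inhibitor, was at 12.9 CPM in members and 45643 CPM in protease epithelium, where 1 cell gave 47.6% of its UMIs. Of members 13.9% held a Spink1 UMI, beside 9.64% of the leukocyte background, which had a median of 4281 UMIs per cell. Foxa2 was at 3.30 CPM in members, from 11 UMIs in 6 cells, and 117 CPM in protease epithelium, 35.4-fold lower (18.0 to 75.9). Sox9, a transcription factor of gland epithelium, was at 181 CPM in members and 1299.8 CPM in protease epithelium, 7.17-fold lower (6.35 to 8.09), and it was not absent: 50.2% of members had a UMI, against 92.9% of protease epithelium and 2.48% of the background. The list of 16 measured epithelial transcription and splicing factors had 2 higher and 6 lower genes. Higher were Ovol1 (48.9 CPM in members and 2.65 CPM in protease epithelium, from 1 UMI, 18.4-fold higher, 3.26 to 733) and Elf3 (294 CPM in members and 119 CPM in protease epithelium, 2.46-fold higher, with 1.65 after thinning), both factors of epithelial differentiation. Pax8, a Müllerian duct factor, was at 281 CPM in members and 241 CPM in protease epithelium (ratio 1.16, 0.937 to 1.46).

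Secreted products split into both directions. Among 7 measured estrogen-induced products 3 were higher and 3 lower, among 7 mucosal defence genes 2 were higher and 3 lower, and among 8 mucins and surface glycoproteins 1 was higher and 4 lower. Higher in members were Wfdc2 (7.94-fold higher, 6.72 to 9.44), C3 (17.2-fold higher, 12.5 to 24.3), Mmp7 (46.8-fold higher, 24.6 to 102) and the matrix phosphoprotein Spp1, at 474 CPM in members and 7.96 CPM in protease epithelium, 59.6-fold higher (20.4 to 289). Spp1 was also at 1120.2 CPM in the leukocyte background. Lower were the disulfide isomerase Agr2 (0.30 CPM in members and 735 CPM in protease epithelium, 2448-fold lower, 436 to 97036), the odorant-binding protein Obp2a (153-fold lower, 103 to 237), the immunoglobulin transporter Pigr (7.91-fold lower, 6.69 to 9.34) and the chaperone Clu (336 CPM in members and 6815 CPM in protease epithelium, 20.3-fold lower, 18.9 to 21.7). Some of these levels rest on few cells. Sprr2f, at 30.0 CPM in members and 2127 CPM in protease epithelium, came from 1 of the 28 protease cells. Ltf, at 17.7 CPM in members and 493 CPM in protease epithelium, came from 5 of the 28, and 1 cell gave 88.7% of it. Obp2a came from 6 of the 28. Muc1 was at 42.0 CPM in members and 92.8 CPM in protease epithelium (2.21-fold lower, 1.48 to 3.22), but the ratio turned to 1.16 with every cell thinned to 2000 UMIs. Lcn2 was 2.88-fold higher (2.06 to 4.14), and the ratio turned to 0.879 without the 24 members of subcluster 5 described below.

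**Figure D2:**
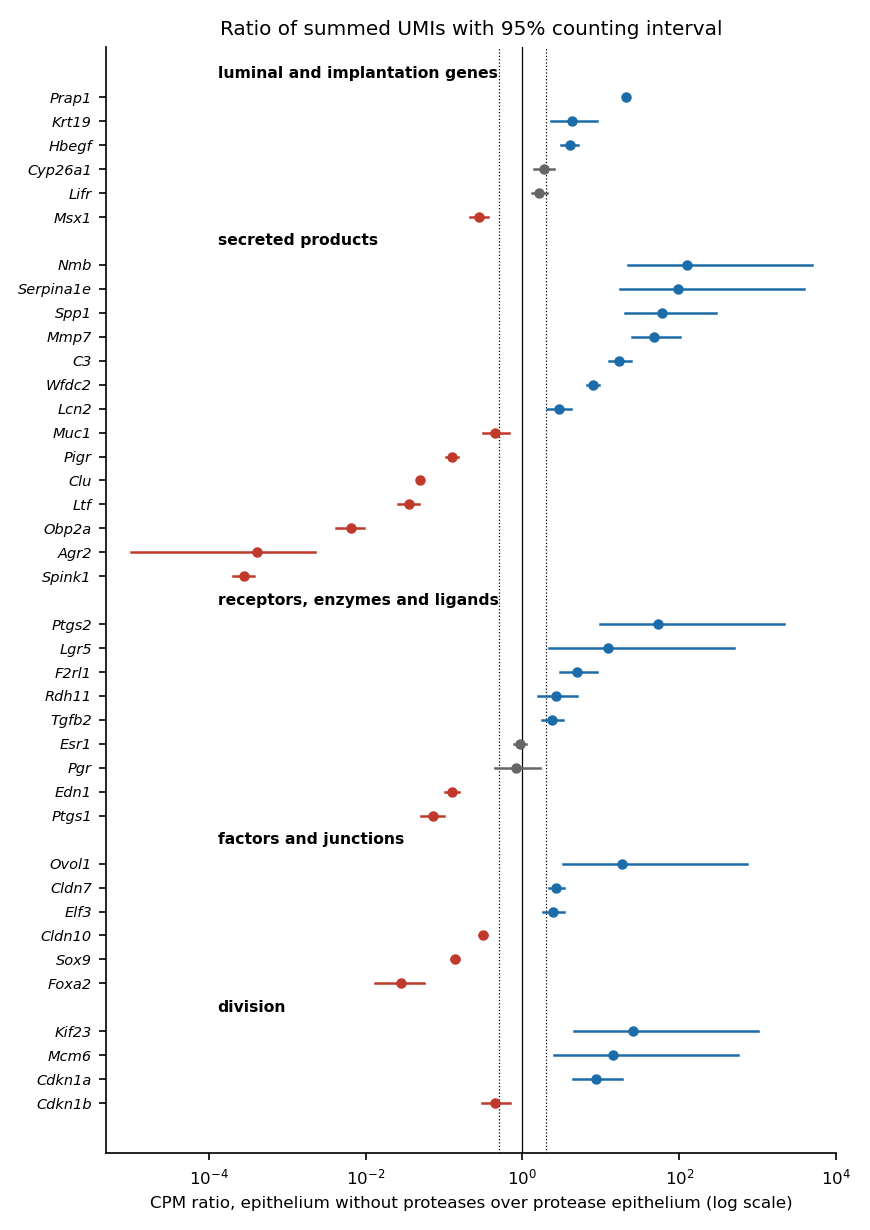
Ratio of CPM in epithelium without proteases over protease epithelium for selected genes, with 95% counting intervals (log scale); the dotted lines mark 2-fold higher and 2-fold lower, and blue, red and grey points are at least 2-fold higher, at least 2-fold lower and between. Prap1, Nmb and Mmp7 lie far to the right, Spink1, Agr2 and Obp2a far to the left, and Esr1 near equality.

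Of 13 measured cytokines and chemokines 8 were higher and 1 lower, against 18.9% and 8.12% of all genes. These 13 genes held 3418 UMIs in members and 159 in protease epithelium. They reached the minimum mostly through members, so their counts are a description that supports no difference. Csf1, the macrophage growth factor, was at 213 CPM in members (50.2% of cells) and at 0 in protease epithelium, at least 26.8-fold higher. Csf1 was not particular to these cells, with UMIs in 50.6% of mesothelium with under 3 epithelial UMIs. After thinning it was in 23.1% of members and 32.0% of that mesothelium. Il1f6, an interleukin-36 ligand, was at least 9.88-fold higher by the same bound, and the bound was 1.10 after thinning. Cxcl5, a neutrophil attractant, and Il6 were at 54.6 and 38.1 CPM in members and at 0 in protease epithelium. They came from 27 and 21 of the 231 members, and the bound for Cxcl5 was 6.86 on all UMIs and 1.06 after thinning. Nmb, a bombesin-like peptide, was at 328 CPM in members (66.7% of cells) and 2.65 CPM in protease epithelium, from 1 UMI, 124-fold higher (22.2 to 4889). The exception was Cxcl17, at 18.9 CPM in members and 127 CPM in protease epithelium.

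In the WNT list 3 of 13 measured genes were higher and 5 lower, against 18.9% and 8.12% of all genes. Wnt7b, a ligand of epithelia, was at 97.8 CPM in members and 0 in protease epithelium, at least 12.3-fold higher (1.83 after thinning), and the receptor Lgr5 was at 33.0 CPM in members and 2.65 CPM in protease epithelium, from 1 UMI, 12.4-fold higher (2.19 to 496). The pathway target Axin2 (6.4-fold lower, 3.47 to 11.6) and the receptor Fzd6 (3.90-fold lower, 2.73 to 5.51) were lower. In the TGF-beta list 3 of 14 were higher and 1 lower, close to the shares of all genes. Tgfb2 was 2.37-fold higher (1.76 to 3.26) and fell short of 2-fold, at 1.94, without the deepest barcodes. The target Id2 was 3.12-fold lower (2.25 to 4.26). Notch1, the only called gene of 5 measured Notch genes, was 3.37-fold lower (2.01 to 5.47).

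None of the 11 measured steroid receptors and cofactors differed by 2-fold on summed UMIs. The estrogen receptor Esr1 was at 391 CPM in members and 419 CPM in protease epithelium (ratio 0.933, 0.791 to 1.11), and the progesterone receptor Pgr at 26.4 CPM in members and 31.8 CPM in protease epithelium (ratio 0.830, 0.452 to 1.67). The Pgr ratio passed the 2-fold mark on the lower side with every cell weighted alike (0.332) and after thinning (0.214). The thinned ratio rests on few cells, with Pgr UMIs left in 7 of 221 members and 3 of 27 protease cells. These shares were 3.17% (1.28 to 6.42) and 11.1% (2.35 to 29.2), with overlapping intervals. Other cells with under 3 epithelial UMIs held 141 CPM of Pgr, and members were 5.34-fold lower (4.30 to 6.71). Hsd11b1, which reactivates glucocorticoids, was at 354 CPM in members (61.0% of cells, and 9.64% of the background) and at 0 in protease epithelium, at least 44.5-fold higher.

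Both cyclooxygenase genes differed, in opposite directions. Ptgs2, the inducible cyclooxygenase, was at 143 CPM in members and 2.65 CPM in protease epithelium, from 1 UMI, 54.1-fold higher (9.66 to 2141). Ptgs1, the constitutive one, was at 17.4 CPM in members and 241 CPM in protease epithelium, 13.9-fold lower (9.87 to 19.6). The receptors Ptger2 and Ptgdr were at 18.9 and 66.0 CPM in members and at 0 in protease epithelium, with a bound of 8.30 for Ptgdr that was 1.43 after thinning, and the transporter Slco2a1 was 10.1-fold lower (5.86 to 17.7). Of the 9 measured prostaglandin genes 4 were higher and 2 lower. Of 6 retinoid genes 2 were higher: Aldh1a2, which makes retinoic acid, at 107 CPM in members and 0 in protease epithelium, and Rdh11, 2.65-fold higher (1.56 to 4.90). After thinning the bound for Aldh1a2 was 1.51 and the ratio of Rdh11 1.27, both under 2-fold. Aldh1a2 was not particular to epithelium, at 207 CPM in mesothelium. Edn1, which encodes the vasoconstrictor endothelin, was at 61.2 CPM in members and 488 CPM in protease epithelium, 7.97-fold lower (6.50 to 9.78), and 1 protease cell gave 47.3% of it.

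Of 7 measured keratins 2 were higher and 1 lower: Krt17 (34.5 CPM in members, 0 in protease epithelium), Krt19 (4.28-fold higher, 2.30 to 8.99) and Krt23 (9.30 CPM in members and 395 CPM in protease epithelium). Krt8 was at 1079 CPM in members and 584 CPM in protease epithelium, Krt18 at 458 CPM in members and 695 CPM in protease epithelium, and Krt7 at 231 CPM in members and 159 CPM in protease epithelium. None of these 3 keratins differed by 2-fold. Of 15 tight junction genes 6 were higher, with the polarity gene Pard6b (8.22-fold higher, 2.78 to 40.2) first, and 3 were lower, with Cldn10 (3.21-fold lower, 2.87 to 3.59) and Cldn8 (7.36-fold lower, 4.85 to 11.1) first. Of 13 adherens junction and desmosome genes 2 were higher and none lower, beside 18.9% higher and 8.12% lower over all genes. Of 18 integrin and basement membrane genes 11 were higher and 2 lower. Itga2, a collagen receptor subunit, was at 30.3 CPM in members and 0 in protease epithelium, at least 3.81-fold higher, and without subcluster 5 the bound was 1.0. Lamb1, a laminin chain, was at 39.9 CPM in members and 2.65 CPM in protease epithelium, from 1 UMI, 15-fold higher (2.65 to 599).

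Transport genes also split. Of 12 measured ion and water transport genes 4 were higher and 3 lower, and of 14 nutrient transporters 6 were higher and 4 lower. The sodium channel subunits Scnn1b and Scnn1g, which absorb uterine fluid, were at 33.3 and 15 CPM in members and at 0 in protease epithelium. The bound for Scnn1g was 1.89, under 2-fold. The potassium channel subunit Kcne2 was at 84.6 CPM in members and 0 in protease epithelium, at least 10.6-fold higher, and the bound was 1.22 after thinning. The sodium-coupled transporters Slc34a2 (phosphate) and Slc5a1 (glucose) were 13.1-fold higher (3.58 to 109) and 11.8-fold higher (2.07 to 469), and Slc34a2 stood at 1.71 after thinning. Lower were the pump regulator Fxyd3, at 551 CPM in members and 2287 CPM in protease epithelium, the chloride exchanger Clcn3 (4.97-fold lower, 4.14 to 5.95) and the carbonic anhydrase Car12 (88.0-fold lower, 58.7 to 137).

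Cell cycle genes were close to the counting floor in protease epithelium. Of the listed genes, 11 of 21 for G2 and mitosis and 13 of 20 for S phase reached 50 UMIs over both groups. The 11 G2 and mitosis genes held 1223 UMIs in members and 18 in protease epithelium, so they reached the minimum through members, and their counts are a description that supports no difference. All 11 and 9 of the 13 were at least 2-fold higher, and none was lower. Without the barcodes over 3 times their group's median UMIs, 2 S phase genes were still measured and none of them was 2-fold higher, and all 4 G2 and mitosis genes still measured were. The 11 genes summed to 367 CPM in members and 47.7 CPM in protease epithelium, and all 21 to 432 CPM in members and 50.4 CPM in protease epithelium. All 20 S phase genes summed to 557 CPM in members and 239 CPM in protease epithelium. Cdk1 and Anln, which drive mitosis and cytokinesis, were both at 18.6 CPM in members and at 0 in protease epithelium, and without the deepest barcodes the bound for Anln was 1.84, under 2-fold. Mki67, a marker of cycling cells, was in 15.6% of members and 3.57% of protease cells, and Top2a, another one, in 17.7% of members and 21.4% of protease cells. After thinning Mki67 was in 7.24% of members and 3.70% of protease cells, and Top2a in 8.14% of members and 3.70% of protease cells, which is 1 protease cell each. The cell cycle inhibitors differed in opposite directions: Cdkn1a was 8.52-fold higher (4.46 to 18.7) and Cdkn1b 2.21-fold lower (1.45 to 3.28). Against other cells with under 3 epithelial UMIs the direction was the other one, with 1 of 21 G2 and mitosis genes higher and 11 lower, and none of 20 S phase genes higher and 10 lower.

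Early response and heat shock genes had 6 of 17 higher and none lower, with Atf3 (3.42-fold higher, 2.89 to 4.07) and Dnajb1 (3.02-fold higher, 2.36 to 3.92) first. Without the deepest barcodes 2 of 17 were higher and 1 lower, and these ratios were 1.94 and 1.81. Fos, a marker of stress during dissociation, was at 1949.8 CPM in members, 3299.8 CPM in protease epithelium and 395 CPM in other cells, and its part in these results was not tested. Of 19 unfolded protein response and secretion genes none was higher and 4 were lower, with Agr2 and Sdf2l1 (4.81-fold lower, 3.52 to 6.53) first. Cholesterol and fatty acid genes had 8 of 16 higher, among them Sqle of sterol synthesis, and 2 lower, with Fabp5, a fatty acid binding protein, at 7.80 CPM in members and 379 CPM in protease epithelium. Glycolysis genes had 3 of 16 higher and none lower, cell death genes 5 of 14 higher and 3 lower, and class I presentation genes 2 of 8 higher and none lower. Over all genes 18.9% were higher and 8.12% lower, so the glycolysis and class I counts did not set these lists apart. One of the 2 class I genes, Bst2 (3.37-fold higher, 1.86 to 6.83), turned to a ratio of 0.814 when cells were thinned to 2000 UMIs.

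**Figure D3:**
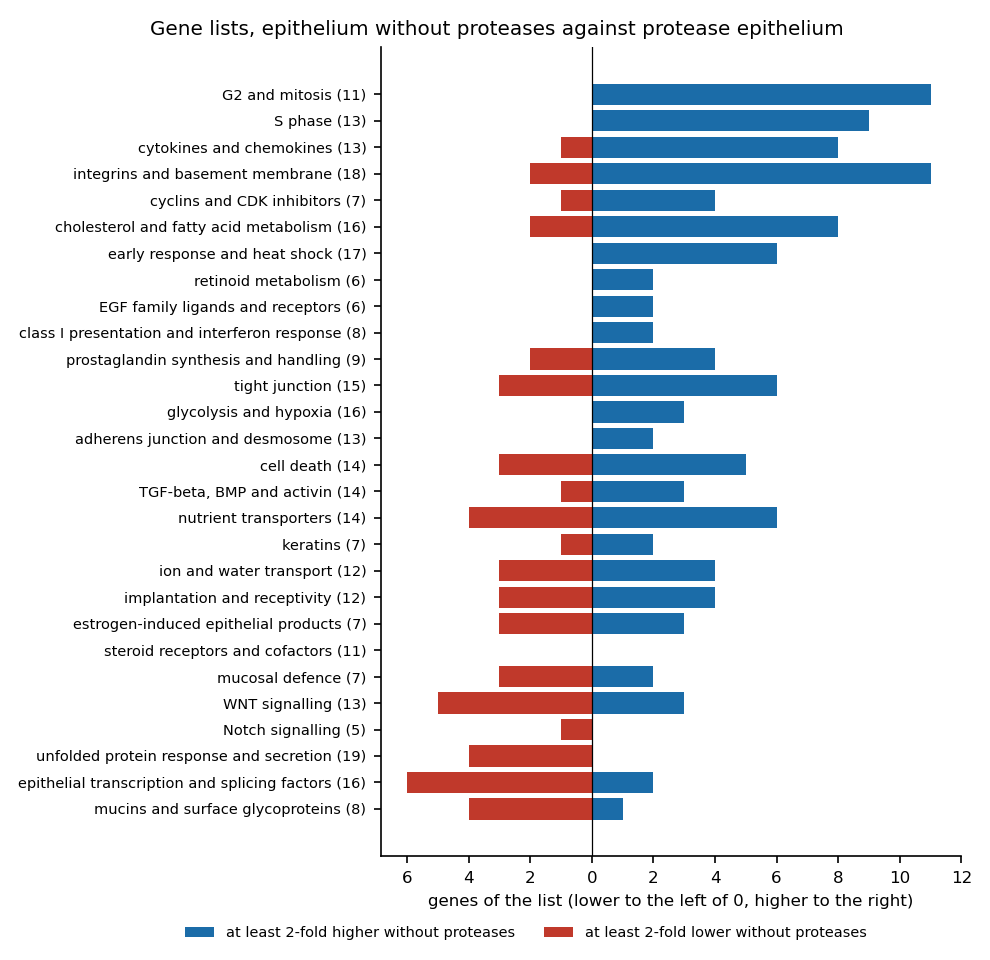
Number of measured genes of each list (total in brackets) that were at least 2-fold higher (blue, right of 0) or at least 2-fold lower (red, left of 0) in epithelium without proteases than in protease epithelium. The bars of G2 and mitosis and of integrins and basement membrane reach 11 genes to the right, and that of epithelial factors 6 to the left.

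Set against all other barcodes, the members held more RNA of keratins, junctions and epithelial factors and less RNA of antigen presentation. The rule itself kept epithelial cells and left out cells with Ptprc, so these contrasts are a description. Of 12178 genes compared, 1111 (9.12%) were at least 2-fold higher and 3305 (27.1%) at least 2-fold lower. The other barcodes include protease epithelium and cells that were kept out for a second cell type's RNA. Against the 1463 of them with under 3 epithelial UMIs, 1194 of 11772 genes (10.1%) were higher and 3488 (29.6%) lower. The median log2 ratio was -0.35 and -0.41, and with ratios divided by it the share of higher calls moved from 25.2% to 37.7% and from 25.5% to 40.1%. The following values are against cells with under 3 epithelial UMIs. Of 8 keratins 7 were higher and none lower, of 16 tight junction genes 13 and none, and of 15 epithelial transcription and splicing factors 13 and none. Examples were Cldn7 (43.7-fold higher, 36.2 to 53.2), the polarity protein Crb3 (85.6-fold higher, 40.9 to 215), Elf3 (41.8-fold higher, 32.0 to 55.4) and Ovol1 (80.7-fold higher, 33.9 to 252). The guanylin-like hormone Guca2b (135-fold higher, 92.5 to 206), Mmp7 (88.6-fold higher, 72.9 to 109), Kcne2 (87.3-fold higher, 43.7 to 204) and Wfdc2 (61.5-fold higher, 55.7 to 68.2) were among the 15 highest ratios of all genes. The receptor F2rl1, which trypsin-like proteases cleave, was at 198 CPM in members, 39.8 CPM in protease epithelium and 4.61 CPM in these other cells.

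All 8 class II presentation genes and 12 of 18 class I presentation and interferon genes were at least 2-fold lower in members, with none higher. H2-Eb1, a class II chain, was at 0.60 CPM in members and 550.2 CPM in the other cells (917-fold lower, 254 to 7571), and the immunoproteasome subunit Psmb8 at 7.20 CPM in members and 108 CPM in the other cells. Notch genes were lower too, 11 of 14, with the modulator Lfng and the target Heyl at 0 UMIs in members. Early response and heat shock genes had 11 of 18 higher, including Ier3 (15.3-fold higher, 14.0 to 16.7) and Fosb (6.24-fold higher, 5.84 to 6.67), and 1 lower, Klf2 (12.3-fold lower, 8.51 to 18.5).

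**Figure D4:**
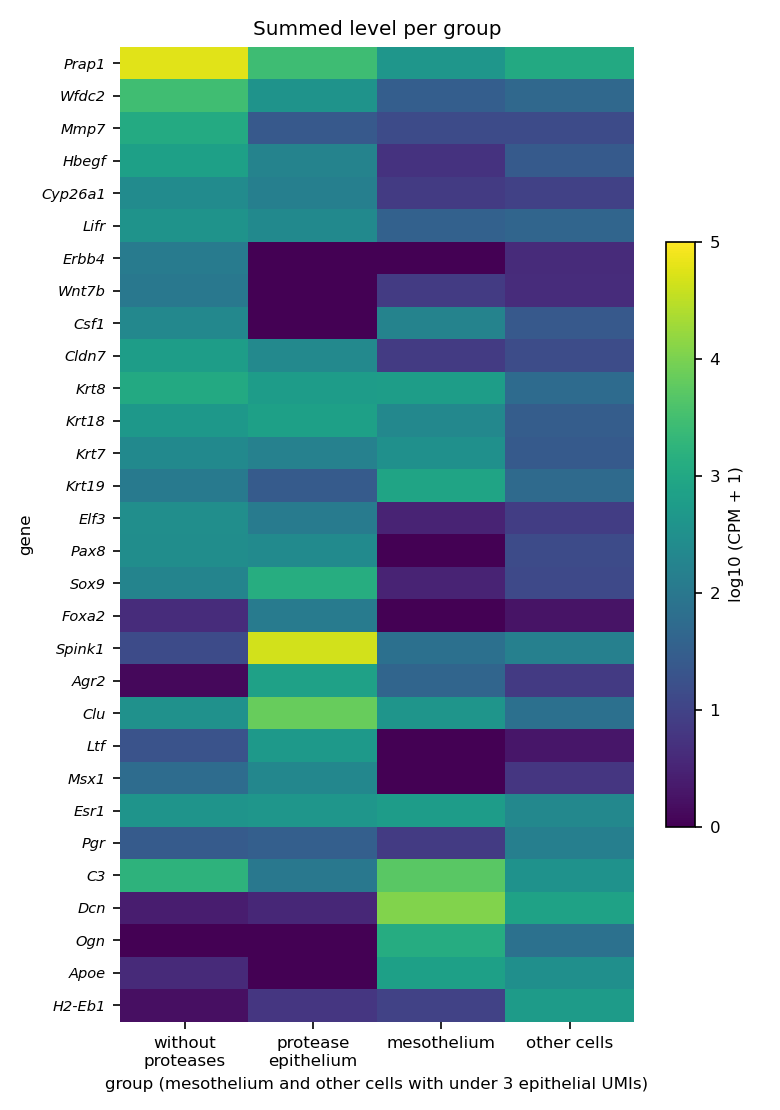
Colour shows log10 of CPM plus 1 for 30 genes (rows) in epithelium without proteases, protease epithelium, and mesothelium and other cells with under 3 epithelial UMIs (columns). Prap1, Wfdc2, Mmp7, Erbb4 and Wnt7b are brightest in the first column, Spink1, Agr2 and Clu in the second, and Dcn and Ogn in the third.

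The mesothelium, the keratin-bearing sheet on the outside of the uterus, was the other simple epithelium in the library. Of 8020 genes 688 (8.58%) were at least 2-fold higher in members and 1131 (14.1%) lower. In the mesothelial group 17 of 96 cells held at least 3 epithelial UMIs. Against the 79 others, 1445 of 7712 genes (18.7%) were higher and 1555 (20.2%) lower. The median log2 ratio was -0.14 in both, and dividing by it moved the share of higher calls from 37.8% to 48.0% and from 48.2% to 55.6%. Pax8 was at 281 CPM in members and at 0 in these 79 cells, and Lcn2 at 275 CPM in members and at 0 in them. The direction for Lcn2 depended on the mesothelial set: against all 96 cells it was at least 2-fold lower in members. Among members Lcn2 was also uneven, at 2088 CPM in subcluster 5, described below, and 83.9 CPM in the others. Of 15 epithelial transcription factors 14 were higher, against 9 of 15 when all 96 mesothelial cells were used, and the 1 lower gene in both was Emx2 (31.8 CPM in members and 122 CPM in mesothelium). The keratins differed in kind: Krt19 was at 113 CPM in members and 844 CPM in mesothelium, 7.44-fold lower (6.44 to 8.59), Krt7 at 231 CPM in members and 321 CPM in mesothelium, and Krt8 at 1079 CPM in members and 613 CPM in mesothelium. The matrix genes Dcn and Ogn were at 1.5 and 0 CPM in members and 11199 and 1239 CPM in mesothelium. The prostaglandin-degrading enzyme Hpgd was at 1.2 CPM in members and 955 CPM in mesothelium.

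The members were not uniform. Leiden clustering of the 231 cells without the 12 genes of the rule gave 5 subclusters, which are numbered and not named, and their leading genes are descriptions, since the same cells were clustered and compared. A resolution of 0.3 gave 4 subclusters, a resolution of 1 gave 7, and another seed gave 5, and the cells of subcluster 5 stayed together in all 3 runs. Depth and mitochondrial share differed between the subclusters: the median UMIs per cell were 25681, 4282.5, 5104.5, 22494.5 and 6171.5 in subclusters 1 to 5, and the median mitochondrial shares 3.82%, 16.6%, 3.86%, 4.11% and 11.8%. Their part in the differences below was not tested.

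Subcluster 1 (67 cells) was deep and had the highest summed levels of cell cycle genes. Top2a, which untangles DNA in mitosis, was at 126 CPM there and 19.2 CPM in the other members, 6.55-fold higher (4.52 to 9.77), with UMIs in 29.9% of its cells and in 15.4% of them after thinning to 2000 UMIs (7.63 to 26.5). After the same thinning 8.33%, 2.50%, 0% and 8.33% of cells in subclusters 2 to 5 held a Top2a UMI, and 12.8% of the leukocyte background. Mki67 was 5.19-fold higher (3.53 to 7.85). The G2 and mitosis list summed to 664 CPM in subcluster 1, against 358, 274, 153 and 164 CPM in subclusters 2 to 5. Its other leading genes included Socs3, the feedback inhibitor of cytokine receptors, at 341 CPM there and 66.4 CPM in the other members, and Guca2b at 752 CPM there and 152 CPM in the other members. One member gave 23.9% of all Guca2b UMIs.

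Subcluster 2 (62 cells) was shallow and rich in mitochondrial and nuclear RNA. Of its cells 59 held over 10% mitochondrial UMIs, and the nuclear RNAs Malat1, Neat1 and Kcnq1ot1 summed to 93653 CPM, against 21562 to 30997 CPM in the other subclusters. Chka, choline kinase, was at 1916 CPM there and 279.6 CPM in the other members, 6.85-fold higher (6.13 to 7.65), and the inflammatory caspase Casp4 was 5.44-fold higher (4.63 to 6.37). Hbegf (689.7 CPM) and Prap1 (58810.4 CPM) were within the range of the other subclusters.

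Subcluster 3 (46 cells) was led by the interferon-induced membrane gene Ifitm1, at 2328 CPM there and 309.7 CPM in the other members. The calcium-binding S100g was at 5738 CPM there and 1009.6 CPM in the other members, 5.68-fold higher (5.38 to 6.01). Single cells weighed on both, with 1 cell giving 36.3% of the subcluster's Ifitm1 UMIs and 47.3% of its S100g UMIs. The median cell of subcluster 3 held 2.97 S100g UMIs per 10000, against 3.40 in subcluster 1. Wnt7b was at 268 CPM there and 75.9 CPM in the other members. Cyp26a1 and Msx1 had their highest summed levels here, at 574 and 137 CPM, and Hbegf its lowest, at 234 CPM. In subcluster 1 Msx1 UMIs were in 38 of 67 cells. In subcluster 3 they were in 15 of 46, and 1 cell gave 34.6% of them. Hbegf was missing from most of its cells, with UMIs in 26.1% of them, against 83.3% to 96.9% in the other subclusters, and 1 cell gave 42.7% of its Hbegf UMIs.

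Subcluster 4 (32 cells, 2 of them marked as doublets) had the highest summed Hbegf, at 1263 CPM, against 501, 689.7, 234 and 797 CPM in subclusters 1, 2, 3 and 5. It was led by Hoxa10, a homeobox gene of uterine receptivity (8.66-fold higher, 4.74 to 16.6, from 40 UMIs in 8 cells), the protease inhibitor-like gene Ctla2a (4.70-fold higher, 3.31 to 6.69), the cornified envelope gene Sprr1a (4.56-fold higher, 3.25 to 6.44), the urokinase receptor Plaur (4.20-fold higher, 3.46 to 5.11), Krt17 (3.65-fold higher, 2.49 to 5.36) and the AP-1 factor Fosl1 (3.54-fold higher, 2.61 to 4.82). Single cells gave 30.0% of its Hoxa10 UMIs, 28.8% of its Ctla2a and 45.8% of its Sprr1a. The epidermal growth factor list summed to 1582 CPM in subcluster 4, and to 733, 1055, 566 and 1131 CPM in the others.

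Subcluster 5 (24 cells) was set apart by low Prap1 and high Clu. Prap1 had a median of 48.3 UMIs per 10000, against 408 to 686 in the other subclusters, and 14 of its 24 cells were above the leukocytes' 95th percentile. Clu was at 2686 CPM there and 88.9 CPM in the other members (30.2-fold higher, 26.3 to 34.8), Lcn2 at 2088 CPM there and 83.9 CPM in the other members (24.9-fold higher, 21.5 to 28.9), and Ltf at 161 CPM there and 2.65 CPM in the other members. Single cells weighed on these sums: 1 cell gave 32.8% of the subcluster's Clu UMIs, 23.7% of its Lcn2 and 52.9% of its Ltf. The median cell still held 17.6 Clu UMIs per 10000, against 0 to 0.471 in the other subclusters. Itga2 (30.5-fold higher, 19.0 to 50.4), fibronectin Fn1 (19.8-fold higher, 15.7 to 25.1), the growth factor Pdgfb (45.6-fold higher, 22.8 to 101) and the RNA-binding Bicc1 (170.1 CPM there and 0.664 CPM in the other members, 256-fold higher, 67.6 to 2170.4) led it too, as did Akap12 (18.5-fold higher, 12.6 to 27.6) and Cald1 (18.0-fold higher, 11.9 to 27.5). One cell gave 40.5% of the subcluster's Fn1 UMIs, and single cells gave 39.6% of its Pdgfb, 54.9% of its Akap12 and 41.4% of its Cald1. The endothelial list of 7 markers summed to 34.6 CPM in subcluster 5, against 2.48 to 5.26 CPM in the other subclusters, and its part in these levels was not tested. Its keratins included Krt7 at 709 CPM and Krt19 at 485 CPM, against 175 to 193 CPM and 36.5 to 106 CPM in the other subclusters, and Muc1, a surface mucin, was at 265 CPM, against 15.5 to 32.8 CPM in the other subclusters. Car4, a membrane carbonic anhydrase, was at 0 there and at 149.6 to 237 CPM in the others. Its mitochondrial share was also high, with 15 of 24 cells over 10%. Clu, Ltf, Muc1 and Edn1 (at 400.0 CPM in subcluster 5) were among the genes at least 2-fold lower in members than in protease epithelium, though the Muc1 ratio was 1.16 after thinning. Other genes high in subcluster 5 went the other way: Lcn2, Krt19 and Itga2 were at least 2-fold higher in members than in protease epithelium. The glandular list of 6 markers summed to 50.4 CPM in subcluster 5 and 45829 CPM in protease epithelium. The gland factor Foxa2 was at 9.45 CPM in subcluster 5, from 3 UMIs, and the highest protease value in this subcluster was 7.79 per 10000.

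**Figure D5:**
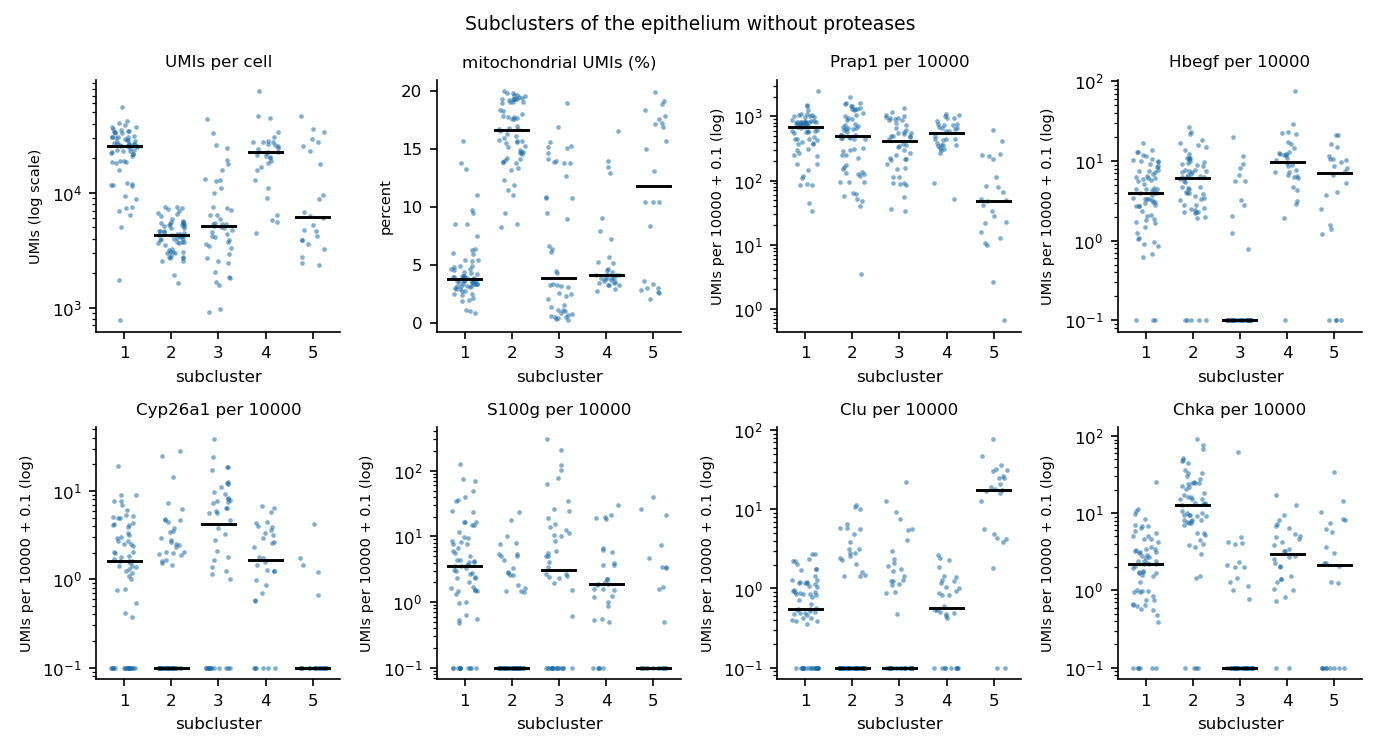
Each point is 1 member, by subcluster (x axis), with UMIs per cell, mitochondrial share, and UMIs per 10000 (0.1 added, log scale) of 6 genes on the y axes; bars are medians. Subcluster 2 is shallow with a high mitochondrial share, subcluster 3 has a median of 0 for Hbegf, and subcluster 5 is low in Prap1 and high in Clu.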

How the data were processed

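The deposited matrix holds UMI counts for 32287 features and 2775 cell barcodes of 1 library, not normalized. Per the file headers the authors' software was Cell Ranger 4.0.0, and the build named in the submitters' processing notes was mm10, with no annotation release named. The total was 16848794 UMIs, and 1825 barcodes passed the filter.

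Counts were summed per group and divided by the group's total (CPM). Intervals are 95%: exact Poisson for levels, conditional binomial for ratios and Clopper-Pearson for shares. UMIs from 1 library are counted once per molecule, and the intervals and the floor of 3 counts cover counting error only. Genes entered a comparison with 50 or more UMIs in the sum of both groups, and 2-fold was the call. Shares were also taken after thinning cells to 2000 UMIs. Members were clustered with Leiden (scanpy 1.11.5, igraph 0.11.9, resolution 0.5, seed 0, 20 components, 15 neighbours, 2000 variable genes). Scrublet, with 5% doublets expected, marked 13 barcodes (0.712%), which stayed in. Other tools were Python 3.11.15, numpy 2.4.6, scipy 1.17.1, pandas 2.3.3 and matplotlib 3.10.9. The scripts were tested on simulated data.

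The members and gene lists were chosen with earlier results of these data known. Genes named by rule were a set list, the 2 highest and 2 lowest called genes of each list, the 15 highest and 10 lowest of each comparison with at least 200 UMIs, and 10 leading genes of each subcluster. F3, Abcb1b, Fbln1, Cryab, Dio3, Fos and Krt13 were named after their values were seen. Alternatives changed the cell filters, thresholds, depth handling, scaling and members.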

Additional observations from a re-analysis of the deposited data

How the results depend on the processing

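No paired analysis was possible because only 1 library was analysed, and no replicate could be left out. Of the 171 summary values under alternatives, 134 stayed within 1.5 times or within their interval. The number of members (231) was 133 with at most 10% mitochondrial UMIs, 186 with at least 6 epithelial UMIs, 263 with at least 5 epithelial UMIs per 10000, 178 with 0 Ptprc UMIs and 159 without barcodes over 3 times the median depth. Genes of the lists at least 2-fold higher than in protease epithelium numbered 113, with 59 at a minimum of 200 UMIs and 43 after thinning, and those lower 52, with 20 at 200 UMIs, 33 at 3-fold and 15 after thinning. Over all genes, those higher than in protease epithelium (1369) were 2062 at a minimum of 20 UMIs, 494 at 200, 764 at 3-fold, 364 after thinning and 862 without the deepest barcodes. Those lower (589) were 1065, 146, 220, 86 and 391 under the same settings. Genes higher than in all other barcodes (1111) were 706 at 200 UMIs, 636 at 3-fold and 644 after thinning, and those lower (3305) were 1800 at 200 UMIs and 2043 after thinning. Genes higher than in mesothelium (688) were 1288 as a mean over cells, 305 at 200 UMIs, 269 at 3-fold, 442 after thinning and 1445 against mesothelium with under 3 epithelial UMIs. Those lower (1131) were 2034 at 20 UMIs, 268 at 200, 573 at 3-fold and 291 after thinning. Thinning to 2000 UMIs lowers the number of genes that reach the minimum, as do higher minimums. The shares of members with a UMI were 27.6% after thinning for Cyp26a1, 57.5% for Hbegf and 92.3% for Wfdc2. Among 2505 ratios of named genes under alternatives, 3 that were past a 2-fold mark changed direction, all against protease epithelium: Bst2 to 0.814 and Muc1 to 1.16 after thinning, and Lcn2 to 0.879 without subcluster 5. Lcn2 against mesothelium is not counted among these 3, though its direction changed too. It was at least 2-fold lower in members against all 96 mesothelial cells, and had no UMI in the 79 with under 3 epithelial UMIs. Ratios between the marks also crossed 1 and reached 2-fold. Against other barcodes with under 3 epithelial UMIs in place of all other barcodes, Clu was 4.86 (main value 0.901), Foxa2 3.89 (0.671) and Ltf 18.3 (0.644). Against mesothelium, Ltf was 2.61 (0.687) without the deepest barcodes, and Muc1 (0.877) was 3.95 after thinning and 2.26 without the deepest barcodes. The cause was not tested. In all 81 crossed a 2-fold mark, 22 of them after thinning. The alternatives listed next were chosen after seeing the data: groups with under 3 epithelial UMIs, members without subcluster 2, members without subcluster 5, and genes at 0 UMIs set at 3. No value could be given for 19 ratios after thinning and for 4 under other settings. Depth limits protease epithelium most, since a gene at 0 there may reach 7.96 CPM.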

Other observations

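Of the 362 barcodes with at least 3 epithelial UMIs, 131 were not members. Of these 28 were protease epithelium and 103 were left out for RNA of another cell type, some by more than 1 condition. The 68 left out for Ptprc had a median of 8 epithelial UMIs, the 18 left out for Tdo2 a median of 4, and the 19 left out for mesothelial genes a median of 47, against 14 in members. Of those 19, 17 held 3 to 6 UMIs of the mesothelial genes. Among the 1463 other cells with under 3 epithelial UMIs, 108 held Prap1 above the leukocytes' 95th percentile.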
